A study of Mus musculus with 30 samples.

Results

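Neurosphere lines that kept 1 copy of the Olig1/2 locus were compared with lines that kept both copies, to ask whether the loss of a single copy moved gene expression part of the way towards the level of lines with none. The comparison rests on 6 of the 30 arrays of the study: 3 heterozygous lines (Olig1/2+/- Ink4a/Arf-/-, lines 11, 15 and 26) and 3 wild-type lines (Olig1/2+/+ Ink4a/Arf-/-, lines 2, 3 and 20). A further 6 arrays of null lines (Olig1/2-/- Ink4a/Arf-/-, lines 12, 13, 14, 16, 21 and 24) served only as the far end of the scale. The arrays were chosen by their titles and genotype labels, among cultures that had received neither the GFP nor the Olig2 virus.

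All 12 cultures shared the same setting. They were neural progenitors of the ventral forebrain, taken from E14.5 ganglionic eminences of mice of mixed Swiss and C57BL/6J background, grown as floating neurospheres in serum-free medium with EGF and bFGF. All lacked Ink4a/Arf, the locus that encodes inhibitors acting on the Rb and p53 pathways. All had been infected at their first passage with a retrovirus for EGFRvIII, a constitutively active form of the EGF receptor found in glioma, and selected with puromycin. RNA was taken at a passage between P4 and P15 that is not given for each array. The series text calls the lines biological replicates, but the labels do not tell whether each came from a separate embryo, so the p-values measure the spread between these lines.

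The adjacent genes Olig1 and Olig2 encode transcription factors of the basic helix-loop-helix family, known for their part in oligodendrocyte formation. Olig2 acts largely as a repressor, is needed to specify oligodendrocyte precursors and motor neurons, and keeps neural progenitors dividing. Such factors bind E-box DNA as dimers, often with E proteins, and Id proteins such as Id4 sequester E proteins and so block them. A gene that depends on the dose of such a factor would lie between its wild-type and null levels in heterozygous cells.

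The expression level of each gene is a MAS5 signal, the array's brightness for 1 probe set per gene on a linear scale. Median signals of the 6 arrays were between 157 and 190, and the progenitor markers Nes, Sox2, Vim and Fabp7 were high on all 6, from 4316 for Sox2 on heterozygous line 11 to 39797 for Vim on wild-type line 3. Of 13 microglial markers, 9 lay below the array median on all 6 arrays, as did 8 of 14 vascular and meningeal markers and 4 of 4 erythroid markers. So did 11 of 15 ventral forebrain and 6 of 16 myelin markers. These counts therefore do not show which cell types were absent, and the region of origin was not read from these markers. Of 18193 genes, 12022 reached the array median on at least 3 of the 12 arrays. The share of all genes below it on all 6 arrays was not computed. The number of arrays limits the precision. Differences are given on the log2(signal + 16) scale with their standard error (SE), from limma's moderated test fitted to the 12 untransduced arrays together, and a gene was called at a Benjamini-Hochberg adjusted p under 0.05 over the 12022 genes tested. Some array properties did not fall evenly over the groups. The log2 ratio of 3′ to 5′ Gapdh probe sets, a measure of RNA integrity, was -0.33 to -0.26 on wild-type and -0.23 to -0.21 on heterozygous arrays, so these groups did not overlap. On null arrays the ratio was -0.26 to -0.13. The same ratio for actin did overlap, at 0.11 to 0.15 on wild-type and 0.12 to 0.24 on heterozygous arrays. The A260/A280 ratio of the RNA was 1.97 for heterozygous line 26 and 1.75 to 1.79 for the other 5 lines. On null arrays the A260/A280 ratio was 1.75 to 2.19. Xist was high on 2 of 3 arrays in each group. The median gene of chromosome 15 was 0.29 and 0.22 higher on null lines 14 and 16 than the mean of the 12 arrays. On heterozygous line 11 it was 0.09 higher.

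In the first 2 principal components the heterozygous lines lay beside the wild-type lines and apart from the null lines, with a small displacement towards them. The first component held 26.3% of the variance and gave wild-type lines -30.2, -28.6 and -23.5, heterozygous lines -21.2, -18.0 and -16.3, and null lines 19.6 to 27.1. The second component, with 14.6%, set apart the lines numbered 20 and above in every genotype: wild-type line 20, heterozygous line 26 and null lines 21 and 24. What the numbers stand for is not given in the labels. Because each of the 2 groups compared holds 1 such line, the split does not run with genotype. Pearson correlations of log2 values over genes were 0.935 to 0.947 among wild-type lines, 0.941 to 0.956 among heterozygous lines and 0.932 to 0.951 between them, against 0.909 to 0.927 between wild-type and null lines. Heterozygous and wild-type lines thus correlated with each other within the range seen inside each group or close to it. Heterozygous and null lines correlated at 0.918 to 0.940. That range overlaps the one between heterozygous and wild-type lines and the one between wild-type and null lines.

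**Figure D1:**
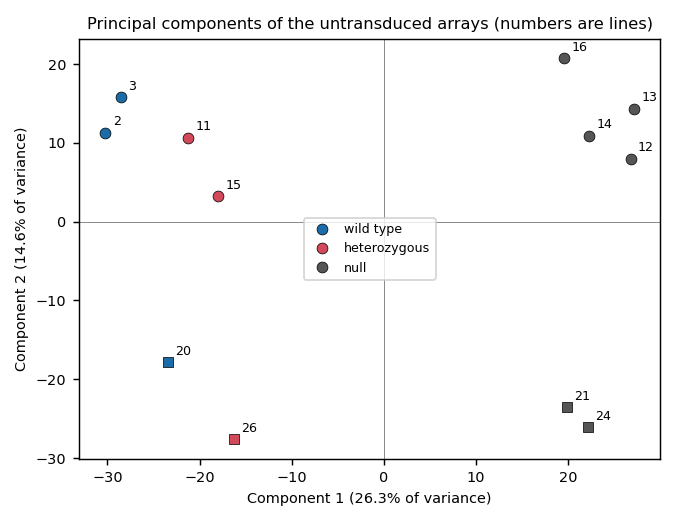
Each point is 1 untransduced array, placed by its first component (horizontal axis, 26.3% of variance) and second component (vertical axis, 14.6%) over the genes tested; squares are lines numbered 20 and above, circles the others, and numbers are lines. Heterozygous arrays lie at -21.2 to -16.3 on the first component, next to the wild-type arrays at -30.2 to -23.5 and far from the null arrays at 19.6 to 27.1.

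The Olig genes themselves were not distinguishable between heterozygous and wild-type lines. Olig1 (chr16:91269769-91271939, GRCm38.p6) gave signals of 30893, 26296 and 22640 on wild-type lines 2, 3 and 20, and 20360, 22618 and 25483 on heterozygous lines 11, 15 and 26. The 2 groups overlapped, and the heterozygous mean was lower by a log2 difference of -0.22 (SE 0.14, limma adjusted p = 0.83, 95% interval -0.52 to 0.08). A level at 50% of wild type would be a log2 difference of -1, which lies outside that interval. Null lines still gave Olig1 signals of 7064 to 9509, a log2 difference of -1.72 from wild type. With that signal left, the loss of 1 copy need not reach -1 on this probe set. Which part of the locus was deleted, and where the probe sets lie in it, is not stated in the labels, so these signals do not check the labels. Heterozygous Olig1 was above the midpoint of wild type and null by 0.64 (SE 0.12, limma adjusted p = 0.046).

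Olig2 (chr16:91225550-91228677) followed the same course with wider scatter in the null lines. Its signals were 18048, 14487 and 13960 on wild-type lines and 14405, 13159 and 11500 on heterozygous lines, which overlapped. The difference was -0.25 (SE 0.21, limma adjusted p = 0.87, 95% interval -0.69 to 0.19). Null minus wild type was itself only -0.93, so a difference of -1 is no benchmark for this probe set. Null lines ranged from 6177 to 11577, and 1 of them, line 24, reached the lowest heterozygous line. For Olig2 the midpoint could not be told from the heterozygous level (0.22, SE 0.17, limma adjusted p = 0.84).

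Over all genes, 1 lost copy left few differences that passed the test. Of 12022 genes, 3 were called higher (0.0250%) and 1 lower (0.00832%) in heterozygous than in wild-type lines, and 799 had an unadjusted p under 0.05. The median difference over all genes was -0.0024, and 49.6% of genes were higher in heterozygous lines. The median gene had a 95% interval of 0.44 to either side of its difference, and for 77.9% of genes the whole interval lay within a log2 difference of 1, that is, within a doubling or halving. By comparison, 522 genes (4.34%) were called higher and 478 (3.98%) lower in null lines than in the mean of the other 2 genotypes.

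Sparcl1 (chr5:104079108-104114088), which encodes a matricellular glycoprotein that astrocytes secrete, was called higher. Wild-type lines gave signals of 13925, 12984 and 14134, and heterozygous lines 26913, 25728 and 23268. Every heterozygous array was above every wild-type array, a difference of 0.88 (SE 0.11, limma adjusted p = 0.016). Null lines ranged from 23452 to 30587, so 2 of the 3 heterozygous lines lay within the null range and line 26 just under it, and null minus heterozygous was 0.11 (95% interval -0.10 to 0.32).

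Rhbdf1 (chr11:32209585-32222331), an inactive rhomboid protein involved in the trafficking of the ADAM17 protease, was also called higher. Its wild-type signals were 1627, 1425 and 1363, its heterozygous signals 2604, 2376 and 3703. The difference was 0.95 (SE 0.14, limma adjusted p = 0.043). The heterozygous lines lay on both sides of the null range of 2798 to 3209, with line 26 above it and lines 11 and 15 below it.

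Klhl23 (chr2:69821941-69836651), a member of the Kelch-like family, was the gene called lower. Wild-type lines gave 1608, 1730 and 1737, heterozygous lines 879, 682 and 928, and null lines 559 to 818. Heterozygous and wild-type arrays did not overlap, whereas heterozygous and null arrays did. The heterozygous difference from wild type was -1.03 (SE 0.16, limma adjusted p = 0.043), and null minus heterozygous was -0.28 (95% interval -0.58 to 0.01).

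Efhd2 (chr4:141858142-141874920), which encodes a calcium-binding EF-hand protein, was the called gene with a part-way level. Its signals were 683, 1204 and 1066 on wild-type lines, 2064, 2370 and 3114 on heterozygous lines, and 8133 to 11194 on null lines. The 3 genotypes were in order with no overlap. Heterozygous was above wild type by 1.36 (SE 0.20, limma adjusted p = 0.043), and null was above heterozygous by 1.86 (95% interval 1.49 to 2.23). On the log2 scale the heterozygous mean stood at 42.2% of the way from wild type to null, and on the linear scale at 18.9%. The second Efhd2 probe set gave the same order, with a difference of 1.495 (SE 0.25).

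**Figure D2:**
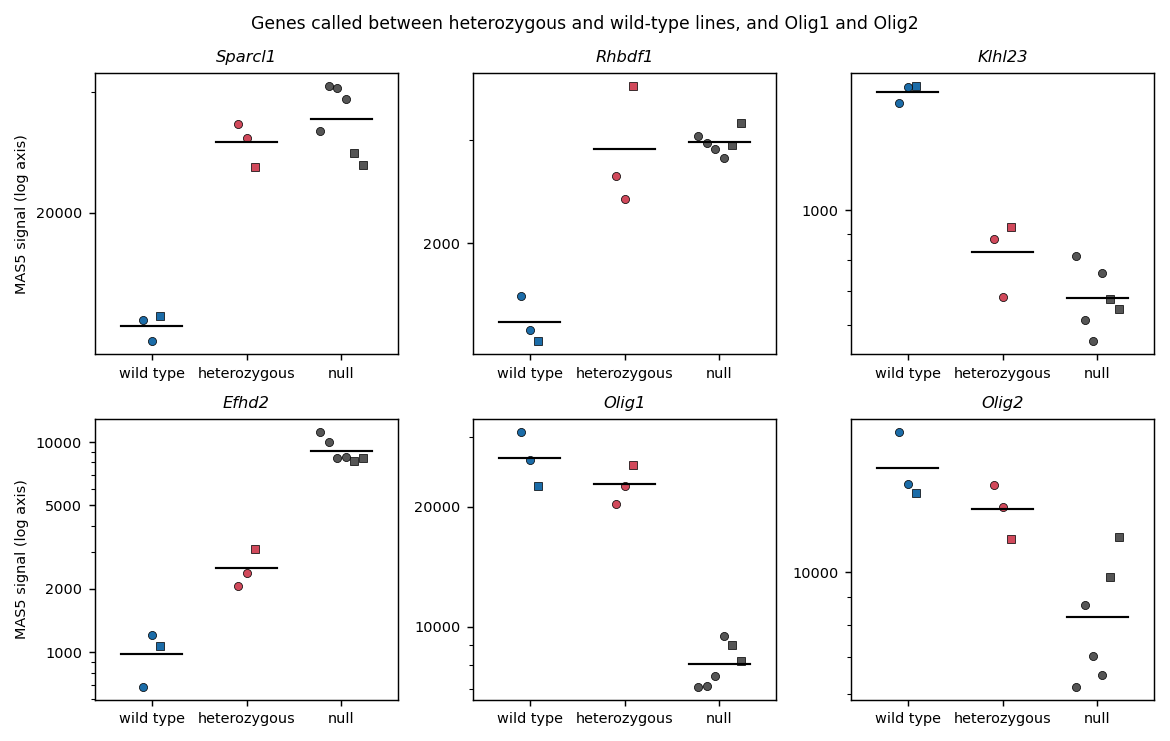
MAS5 signal (vertical log axis) of the 4 genes called between heterozygous and wild-type lines and of Olig1 and Olig2 in each untransduced array, by genotype; squares are lines numbered 20 and above, circles the others, and bars are group means. Sparcl1, Rhbdf1 and Klhl23 heterozygous signals overlap or straddle the null signals, Efhd2 lies between the groups at 2064 to 3114, and for Olig1 and Olig2 the heterozygous and wild-type arrays overlap.

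The calls were close to the threshold. Each difference kept its sign under all 27 alternative settings, with Sparcl1 at 0.79 to 0.94, Rhbdf1 at 0.75 to 1.07, Klhl23 at -1.11 to -0.89 and Efhd2 at 1.12 to 1.52, but the call was lost in 7 settings for Sparcl1, 20 for Rhbdf1, 18 for Klhl23 and 18 for Efhd2. With the Gapdh ratio as a covariate 0 of the 12022 genes were called by limma and 1001 had an unadjusted p under 0.05, and the differences of these 4 genes were 0.79, 0.97, -0.97 and 1.26; as the ratio separates the groups, its part and that of genotype cannot be told apart.

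Other genes of smallest p did not pass the test, and some were as far from wild type as the null lines. Choosing genes by this difference favours large steps, so their positions do not describe genes in general. Efna5, Syt7 and D430041D05Rik, chosen the same way and described below, stood at 62.4%, 45.5% and 31.4% of the way to null on the log2 scale. Lrp11, a low-density lipoprotein receptor-related protein, gave 446, 318 and 542 in wild-type, 1444, 1458 and 907 in heterozygous and 1273 to 2508 in null lines (1.51, SE 0.26, limma adjusted p = 0.11), and was called with array weights. Agpat4, an acyltransferase of phospholipid synthesis, gave 982, 855 and 1000.2, then 2681, 1999 and 1671, then 1169 to 2317 (1.13, SE 0.21, limma adjusted p = 0.16). Its heterozygous mean stood at 141% of the way from wild type to null on the log2 scale, past the null mean. The semaphorin gene Sema4b (1.15), the Hippo pathway gene Wwc1 (1.12) and Tmbim1 (0.95) were each at a limma adjusted p of 0.18. All were called with a term for lines numbered 20 and above. Tmbim1 stood at 97.4%, Sema4b at 74% and Wwc1 at 65.4%.

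On the lower side, Rgs10, a regulator of G protein signalling, gave 731, 812 and 786 in wild-type, 406, 460 and 561 in heterozygous and 438.0 to 546 in null lines (-0.70, SE 0.15, limma adjusted p = 0.24), at 113%. The synaptic vesicle gene Sv2a ranged from 571 to 843 in wild-type, 272 to 369 in heterozygous and 289 to 529 in null lines, at 128%. Abca2, a lipid transporter gene (-1.13), Maneal (-1.09), Pdk2, a kinase that inhibits pyruvate dehydrogenase (-0.93), and 1700003F12Rik (-0.73) also had heterozygous arrays below all wild-type arrays, at limma adjusted p of 0.34 to 0.37. For Maneal, heterozygous signals of 150.0, 165 and 129 were below every null array as well (171 to 348).

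The 4 called genes were read in arrays that share no sample with this comparison, null lines 12, 13 and 14 carrying Olig2 virus against the same lines carrying GFP virus. With Olig2, Efhd2 was lower by a log2 difference of -2.73 (limma adjusted p = 0.0051) and Rhbdf1 by -0.77 (limma adjusted p = 0.017), and Klhl23 was higher by 1.199 (limma adjusted p = 0.023). Sparcl1 differed by 0.01 (limma adjusted p = 0.98). So 3 of the 4 genes changed with added Olig2 in the direction opposite to the change with a lost copy, where 4.64% of all genes were called lower and 3.24% higher with Olig2, and Sparcl1 did not pass the test there.

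Genes with a stepwise level in all 12 arrays, with no overlap between wild type, heterozygous and null, numbered 44 in rising order (0.366% of genes tested) and 44 in falling order (0.366%). Among those in rising order Glul, glutamine synthetase of astrocytes, gave 1374, 1240 and 1980 in wild-type lines, 2297, 3520 and 4272 in heterozygous lines and 4712 to 9398 in null lines. The steps were 1.11 (SE 0.29, limma adjusted p = 0.37) from wild type to heterozygous and 1.19 (limma adjusted p = 0.016) from heterozygous to null. Its second probe set gave 1.70 (SE 0.32) for the first step. Efna5, the axon-guidance ligand ephrin-A5, gave 29.8, 53.1 and 41.2 in wild-type, 243, 140 and 199 in heterozygous and 252 to 683 in null lines. That step was 1.86 (SE 0.39, limma adjusted p = 0.24), although these wild-type signals were far below the array medians and the other Efna5 probe set, dim in all groups, gave -0.43 (SE 0.52).

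Lrp4, a low-density lipoprotein receptor-related protein that binds agrin and Wnt antagonists, gave 320, 260 and 474 in wild-type, 646, 690 and 700 in heterozygous and 1474 to 2839 in null lines. The uncharacterised gene D430041D05Rik gave 152, 197 and 167, then 411, 325 and 342, then 1204 to 1918. Both genes were ordered, with heterozygous differences from wild type of 0.96 (SE 0.23) and 0.997 (SE 0.18) that did not pass the test (limma adjusted p = 0.34 and 0.12). Sema6d, a transmembrane semaphorin, and Hacd2, a dehydratase of fatty acid elongation, were ordered with smaller steps of 0.61 (SE 0.15) and 0.43 (SE 0.11), both at a limma adjusted p of 0.37.

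Among the genes in falling order, Syt7, a calcium sensor of vesicle fusion, gave 2176, 2176 and 2252 in wild-type lines, 1147, 926 and 1103 in heterozygous lines and 306 to 767 in null lines. Its first step was -1.05 (SE 0.24, limma adjusted p = 0.34), with 3 dimmer Syt7 probe sets at -0.91, -0.34 and -0.29; it lies on chromosome 19, whose median gene was 0.26 higher on wild-type line 3 than the mean of the 12 arrays. Car8, a carbonic anhydrase-related protein, gave 1508, 1267 and 2945, then 630, 473 and 980, then 64 to 310. Ddit4l, an inhibitor of mTOR signalling, gave 2747, 1735 and 2924, then 968, 694 and 1056, then 126 to 470. The first steps of Car8 and Ddit4l were -1.40 (SE 0.45) and -1.42 (SE 0.43), with limma adjusted p of 0.55 and 0.48, and the other probe sets of both genes gave -1.52 to -1.23. All 3 genes were ordered by array, and none of the 3 steps from wild type to heterozygous passed the test across all genes. The other ordered genes of smallest p on this side were Adgrg1 (-0.48), an adhesion G protein-coupled receptor of neural progenitors, Ints6l (-0.44) and the actin regulator Cobll1 (-0.57).

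**Figure D3:**
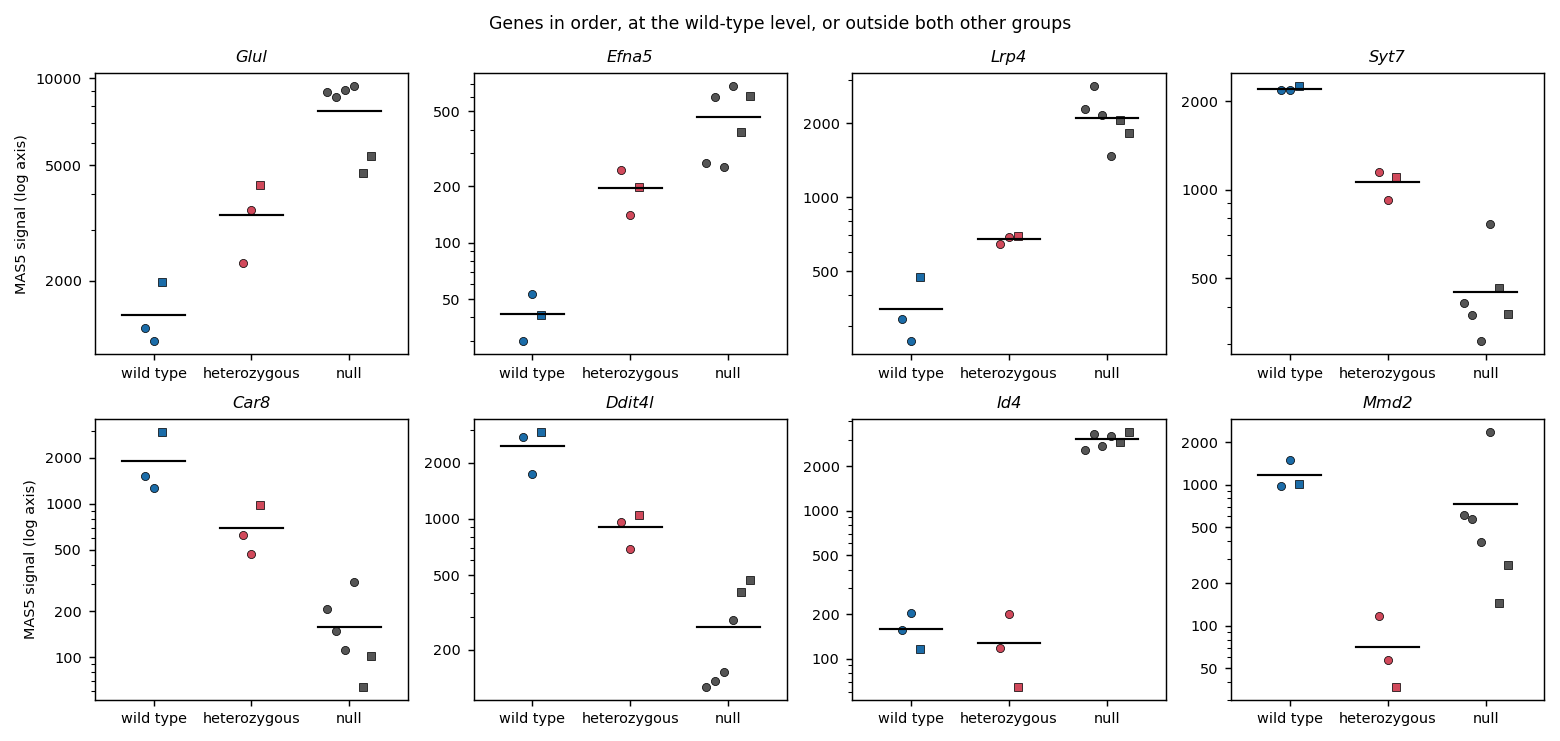
MAS5 signal (vertical log axis) of 8 genes in each untransduced array, by genotype; squares are lines numbered 20 and above, circles the others, and bars are group means. Glul, Efna5, Lrp4, Syt7, Car8 and Ddit4l step from wild type through heterozygous to null with no overlap, Id4 is at 64.4 to 202 in the first 2 groups and 2574 to 3407 in null lines, and Mmd2 is lowest in heterozygous lines.

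The ordered genes stood nearer to wild type than to null on the log2 scale, and less clearly so on the linear scale for those in falling order. On the log2 scale the median position of the heterozygous mean, with wild type at 0% and null at 100%, was 42.1% for the 44 genes in rising and 40.02% for the 44 in falling order, and 31 and 38 of them lay under 50%. On the linear scale the medians were 28.8% and 48.2%, and 41 and 24 lay under 50%. Syt7, Car8 and Ddit4l, for example, stood at 65.2%, 69.3% and 70.9% on the linear scale, nearer to null, and Lrp4 at 18.6%. The order itself was how these genes were chosen. A list chosen without regard to the heterozygous minus wild-type difference is the 1000 genes called between null lines and the mean of the other 2 genotypes. Over those, the median position was 14.8%, with quartiles of -10.7% and 37.7%. Of the 1000 genes, 345 lay on the far side of wild type from null, 267 between 0% and 25% of the way, 369 between 25% and 75%, and 19 between 75% and 100%.

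The midpoint between wild type and null, the level of an even dose response on the log2 scale, was tested directly. Heterozygous lines were called below it for 18 genes (0.150%) and above it for 2 (0.0166%), and 921 genes had an unadjusted p under 0.05. Of the 18 below it, 17 were higher in null than in wild-type lines, and 14 of those had heterozygous arrays that overlapped the wild-type arrays. The test uses the same null and wild-type arrays that place the midpoint.

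Id4 (chr13:48261116-48266028) lay furthest below its midpoint after Mmd2. It gave 156, 202 and 117 in wild-type lines, 119, 200 and 64.4 in heterozygous lines and 2574 to 3407 in null lines. Heterozygous and wild-type lines overlapped (-0.36, SE 0.28, limma adjusted p = 0.86), and heterozygous lines were below the midpoint by -2.44 (SE 0.23, limma adjusted p = 0.0012). The other 2 Id4 probe sets gave heterozygous minus wild-type differences of 0.77 (SE 0.54) and -0.003 (SE 0.20), against null minus wild-type differences of 5.61 and 3.28. The Id4 signal reached the array median on 2 of the 6 wild-type and heterozygous arrays, so the gene was tested through its null arrays and the size of its log2 distance depends on low signals.

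Among the other genes called below the midpoint, Rgs16, which shortens G protein signalling, gave 388, 320 and 261 in wild-type, 267, 566 and 538 in heterozygous and 4521 to 10062 in null lines, and was below the midpoint by -1.67 (limma adjusted p = 0.031). Rgs14 of the same family was below it by -1.21 (limma adjusted p = 0.0012) and the LIM-domain gene Lmcd1 by -1.79 (limma adjusted p = 0.031). Fez1, a kinesin adaptor, and Cplx2, a complexin of vesicle release, were below it by -1.10 and -1.03 (limma adjusted p = 0.0012 and 0.011). Fez1 heterozygous arrays, at 1936, 2082 and 1634, lay below every wild-type array (2216 to 2790) and every null array, as did those of Nek6. Trim2, a ubiquitin ligase, was below its midpoint by -1.10 (limma adjusted p = 0.047) and yet in full order, at 282, 401 and 336, then 541, 467 and 495, then 2283 to 4844. The position of Trim2 was 16.7% on the log2 scale. The remaining genes called below it were the podoplanin gene Pdpn, the deubiquitinase Uchl1, the potassium channel Kcnc1, the engulfment adaptor Gulp1, the protocadherin Pcdh18, the cochaperone Bag1, the galactosyltransferase B4galt1, the mitotic kinase Nek6, Dlc1 and Dipk2a, at -1.48 to -0.65, together with Mmd2.

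Above the midpoint were Olig1, given above, and Apln, which encodes the peptide apelin. Apln gave 9408, 6246 and 3970 in wild-type, 8597, 6221 and 6683 in heterozygous and 1381 to 2046 in null lines, and stood above the midpoint by 1.16 (SE 0.21, limma adjusted p = 0.044). Heterozygous and wild-type lines overlapped for this gene. Of the 20 calls, those of Id4, Rgs14 and Fez1 were kept under all 26 alternative settings, while B4galt1 lost its call in 18, Trim2 in 16, Olig1 in 15 and Dlc1 and Apln in 14 settings each.

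**Figure D4:**
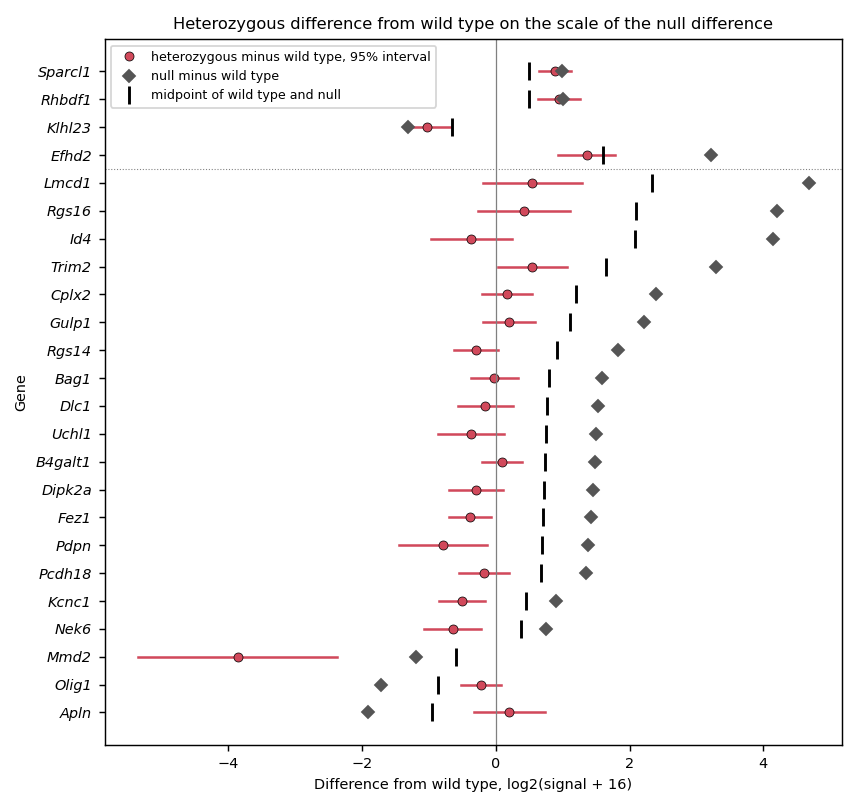
Differences from wild type on the log2(signal + 16) scale (horizontal axis) for the 4 genes called between heterozygous and wild-type lines (above the dotted line) and the 20 called against the midpoint (below it); red points are heterozygous lines with their 95% interval, diamonds the null lines and bars the midpoint. Below the line the red intervals miss the midpoint, and most cover or lie near 0, as for Id4 at -0.36 with null lines at 4.15.

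The genes with the largest differences in null lines were followed in the heterozygous lines. For the 10 highest in null lines relative to both other genotypes (Lmcd1, Id4, Rgs16, Thsd4, Cacng5, Klhdc8b, Gpr37, Car3, Fam167a and the Y-linked Eif2s3y), low signals limit what can be read: Thsd4, Klhdc8b, Gpr37, Fam167a and Eif2s3y were under the array median on all 6 wild-type and heterozygous arrays and were tested only through null arrays. Car3, a carbonic anhydrase, had 1 of the wider steps, with 512, 236 and 819 in wild-type, 526, 2207 and 3040 in heterozygous and 4292 to 21842 in null lines (1.68, SE 0.65, limma adjusted p = 0.65). Heterozygous line 11 was at the wild-type level and lines 15 and 26 were above it. Xist was low in 4 of 6 null lines, and Eif2s3y was at 299 to 854 in those 4 and at 14.9 and 30.4 in the other 2.

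For the 10 lowest in null lines (Chl1, Tshz2, Gap43, Car8, Arc, Ramp1, Mamdc2, Pcdh7, Kcnd2 and Ddit4l), which were chosen with the heterozygous arrays as part of the contrast, Car8, Ddit4l, Ramp1 and Pcdh7 were in falling order in all 12 arrays. Ramp1, a partner of the calcitonin receptor-like receptor, gave 3718, 4226 and 3926 in wild-type, 2657, 2486 and 2424 in heterozygous and 140 to 1499 in null lines. Its step was -0.65 (SE 0.62, limma adjusted p = 0.89), and the null lines had the widest scatter. Gap43, a growth cone protein of neurons, gave 3061, 1778 and 6556, then 203, 338 and 2195, then 18.6 to 727 (-2.57, SE 0.93, limma adjusted p = 0.63). Heterozygous lines 11 and 15 were within the null range of Gap43, and line 26 was within the wild-type range. Chl1, a neural cell adhesion molecule, was not stepwise, at 5166, 416 and 1286, then 1873, 2036 and 2166, then 85.9 to 177.

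The DNA just before the start of a gene of each pattern is shown, as the 250 bases before the RefSeq start (GRCm38.p6, along the gene's strand). The genes are Efhd2 (part-way), Klhl23 (overlapping null, at 78.3% of the way to it on the log2 scale) and Id4 (overlapping wild type). For Klhl23 the most upstream of 3 listed starts was used. Capitals mark each match to the E-box CANNTG, which reads as the same pattern on both strands, and which 66.2% of 32841 mouse promoter windows of this length hold.
Efhd2, chr4:141874921-141875170, minus strand: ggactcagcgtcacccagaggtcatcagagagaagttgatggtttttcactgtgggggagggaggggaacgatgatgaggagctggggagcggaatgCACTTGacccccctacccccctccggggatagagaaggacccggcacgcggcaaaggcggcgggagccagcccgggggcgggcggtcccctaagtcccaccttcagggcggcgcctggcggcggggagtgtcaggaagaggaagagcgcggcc
Klhl23, chr2:69821691-69821940, plus strand: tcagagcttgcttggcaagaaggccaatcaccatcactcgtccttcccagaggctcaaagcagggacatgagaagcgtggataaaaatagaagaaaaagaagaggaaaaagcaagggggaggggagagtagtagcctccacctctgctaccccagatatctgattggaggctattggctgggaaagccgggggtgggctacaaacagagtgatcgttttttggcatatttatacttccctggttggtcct
Id4, chr13:48260866-48261115, plus strand: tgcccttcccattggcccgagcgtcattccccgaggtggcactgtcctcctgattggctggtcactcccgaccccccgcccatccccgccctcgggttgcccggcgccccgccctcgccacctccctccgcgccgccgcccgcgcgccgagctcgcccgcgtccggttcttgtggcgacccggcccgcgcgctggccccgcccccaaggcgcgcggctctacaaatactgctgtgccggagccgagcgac
The Efhd2 window held 1 E-box, CACTTG, and the Klhl23 and Id4 windows held 0. No match says only that these letters are not in this window.

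Some genes were outermost in heterozygous lines. Heterozygous arrays were above every wild-type and every null array for 85 genes (0.707%) and below every one for 76 (0.632%), 161 in all. That number cannot be compared directly with the 88 genes in order. Full order also requires wild-type and null arrays to lie apart, which is a stricter condition. The 3 largest heterozygous minus wild-type differences among these genes were those of Mmd2, Apoe and Ndrg2. Mmd2, a progestin and adipoQ receptor family member known from the astrocyte lineage, gave 981, 1503 and 1014 in wild-type lines, 118, 56.9 and 36.9 in heterozygous lines and 146 to 2370 in null lines. The heterozygous minus wild-type difference was -3.85 (SE 0.69, limma adjusted p = 0.12), and null minus heterozygous was 2.66 (limma adjusted p = 0.023). The heterozygous signals were below the array medians, so the size depends on low signals, and it ranged from -4.85 to -3.21 over the alternative settings. Its second probe set gave -2.41 (SE 0.73) and the remaining, dim one -0.41 (SE 0.49). Without null line 16, the array with the highest Mmd2 signal, the heterozygous minus wild-type difference was called at the same -3.85, as it was with a term for lines numbered 20 and above and with the 6 arrays alone.

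Ndrg2 and Apoe, both abundant in astrocytes, had the same shape. Ndrg2 gave 280, 376 and 189, then 57.3, 27.2 and 81.1, then 108 to 573, a difference of -2.09 (SE 0.51, limma adjusted p = 0.37). Apoe, the lipid carrier of the brain, gave 3759, 2337 and 1320, then 462, 306 and 371, then 1100 to 12387, a difference of -2.55 (SE 0.69, limma adjusted p = 0.37). In both genes null line 16 was the highest of the 12 arrays. Neither difference passed the test, and the 3 genes were singled out after their values were seen.

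Marker and pathway lists were read for their members' differences, with all genes as the background, of which 5.69% had heterozygous arrays above and 6.25% below all wild-type arrays. Among 23 astrocyte genes tested, 1 was called (Sparcl1), 8 were higher and 15 lower in heterozygous lines, with a median of -0.22 against -0.0024 over all genes. The list split: Sparcl1, Glul and Nfia had heterozygous arrays above, and Apoe, the water channel gene Aqp4, Sox9, Ntsr2 and Cst3 below, all wild-type arrays. Sox9, a glial transcription factor, gave 755, 695 and 751 in wild-type and 566, 544 and 538 in heterozygous lines (-0.41, SE 0.18, limma adjusted p = 0.73).

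The oligodendrocyte lists had medians near 0. Of 11 precursor genes tested, 0 were called and 1, Sox8, had non-overlapping arrays, with a median of -0.08. Of 11 myelin genes, 0 were called and the median was 0.01. The precursor marker Pdgfra was dim in both groups, at 208, 34.8 and 183 in wild-type and 202, 91.7 and 65.2 in heterozygous lines. Among 20 neural stem cell genes 0 were called and the median was 0.04. Pax6, a transcription factor of dorsal progenitors, gave 25.4, 99.9 and 546 in wild-type against 513, 469 and 459 in heterozygous lines, a difference of 1.83 (SE 0.61, limma adjusted p = 0.58), and the groups overlapped through wild-type line 20. Without that line the Pax6 difference was called, at 2.84.

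Of 18 growth factor receptor and MAPK feedback genes, 6 had heterozygous arrays above all wild-type arrays, 0 had them below, and 0 were called. The 6 were the feedback inhibitors Spry1, Spry2 and Spred1, the receptors Igf1r and Erbb2 and the transcription factor Etv5, and the list's median was 0.10, or 0.22 without wild-type line 20, which was left out of the list medians after the data were seen. Spry1 gave 7191, 6197 and 6789 in wild-type and 11114, 10215 and 9534 in heterozygous lines (0.61, SE 0.14, limma adjusted p = 0.32), with null lines at 8010 to 12605. Igf1r gave 998, 1644 and 1357 against 2110, 1939 and 2352 (0.70, SE 0.20, limma adjusted p = 0.45). Egfr overlapped between the groups (0.06, SE 0.15). The summed signal of this list was 63112 to 71840 in wild-type and 73835 to 85339 in heterozygous lines, which did not overlap.

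Of 10 Hedgehog pathway genes tested, 0 were called and 1 had non-overlapping arrays. That gene was Gas1, a Hedgehog coreceptor, at 7755, 7624 and 5620 in wild-type, 16222, 14848 and 11006 in heterozygous and 14157 to 22861 in null lines. Heterozygous lines overlapped null lines and were all above wild-type lines, with a difference of 0.997 (SE 0.21, limma adjusted p = 0.24) that was called with a term for lines numbered 20 and above. The median of the list was 0.05. Among 12 extracellular matrix genes, 10 were higher, 1 was called (Sparcl1) and the median was 0.28, or 0.10 with 8 higher without wild-type line 20. Col4a1, a basement membrane collagen, gave 2141, 3238 and 2112 in wild-type and 4752, 4696 and 3431 in heterozygous lines (0.79, SE 0.23, limma adjusted p = 0.45). Summed signals did not overlap for the Hedgehog list (12831 to 15246 in wild-type, 18394 to 24001 in heterozygous lines) or the matrix list (31537 to 43153 against 44959 to 61164). A sum weighs its brightest members most. Gas1 holds much of the Hedgehog sum, and Sparcl1 (12984 to 14134 against 23268 to 26913) holds much of the matrix sum. These sums therefore do not show a shift of the lists as a whole. Summed signals also did not overlap for an interferon response list (2127 to 2513 against 1670 to 2003). Of its 15 members with a probe set, 8 were below the array median on all 6 arrays. The 5 genes tested had a median of -0.07, and 0 of them had non-overlapping arrays.

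For 16 hypoxia and glycolysis genes, 15 were higher in heterozygous lines, the median was 0.35, 0 were called and 0 had non-overlapping arrays. Wild-type line 20 was the lowest of the 6 arrays for all 16, and without it 9 were higher and the median was 0.03. The summed signal was 100291, 111205 and 74387 in wild-type and 122212, 98642 and 93624 in heterozygous lines, which overlapped. Null lines stood on the other side of wild type, with a median of -0.31. The glucose transporter gene Slc2a1 (0.36) and the hexokinase gene Hk2 (0.51) had the opposite sign, at -0.17 and -0.013, with the Gapdh ratio as a covariate. Of 15 p53 target genes 12 were lower, with 0 called and a median of -0.23. Zmat3, Pmaip1 and Aen had heterozygous arrays below, and the kinase gene Plk2 (0.53) above, all wild-type arrays, but Cdkn1a, the CDK inhibitor induced by p53, was near 0 (-0.06, SE 0.23). It gave 3548, 6263 and 4233 in wild-type and 5435, 3755 and 4107 in heterozygous lines. Among 23 proliferation genes 0 were called, the median was 0.02 and Mki67 differed by 0.19. The only proliferation gene with non-overlapping arrays was Ccnb2, a mitotic cyclin gene, at 1187, 1785 and 1538 in wild-type, 731, 827 and 1118 in heterozygous and 630 to 971 in null lines (-0.75, SE 0.20, limma adjusted p = 0.38). Among 17 Notch pathway genes 0 were called, 11 were lower and the median was -0.11. The receptor gene Notch1 (-0.52) and the ligand gene Dll1 (-0.42) had heterozygous arrays below all wild-type arrays. Another ligand gene, Jag1 (0.60), had them above.

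Genes within 2 Mb of Olig1 and Olig2 on chromosome 16 were read because the targeted allele and the DNA around it are inherited together. Of 43 neighbours with a probe set, 31 were tested, 0 were called and 0 had non-overlapping arrays. Of the 31, 20 were lower in heterozygous lines, with a median of -0.11, a summed signal of 49950 to 53017 in wild-type against 48652 to 49002 in heterozygous lines, and a range of -0.68 (Il10rb) to 0.57 (Fam243). Il10rb, a cytokine receptor subunit gene, was at -1.54 in null lines relative to wild type. An unadjusted limma p under 0.05 was found for 6.65% of all genes. Among lists with 0 calls, it was found for 1 of 11 precursor, 1 of 11 myelin, 3 of 20 stem cell and 4 of 18 MAPK feedback genes. It was also found for 1 of 10 Hedgehog, 0 of 16 hypoxia, 1 of 15 p53, 1 of 23 proliferation and 2 of 17 Notch genes. The remaining counts were 2 of 31 neighbour, 3 of 11 neuronal, 1 of 3 ventral forebrain and 1 of 18 immediate early genes. The BMP and Id, basic helix-loop-helix partner, CDK inhibitor, cholesterol, interferon, microglial, vascular and sex-linked lists held 0.

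A list of genes that respond to Olig2 was taken from the null lines with Olig2 or GFP virus, a contrast that shares cell lines 12, 13 and 14 with the null reference and no array with the heterozygous and wild-type groups. Its estimate of the spread also drew on virus arrays of heterozygous lines 11 and 15. Of 12458 genes tested there, 578 (4.64%) were lower and 404 (3.24%) higher with Olig2. In heterozygous against wild-type lines, 577 of the first were tested, 400 of them (69.3%) were higher, and their median was 0.10, against a null minus wild-type median of 0.31. Of these 577, 2 were called higher, 81 (14.04%) had heterozygous arrays above and 14 (2.43%) below all wild-type arrays. Of the second list 398 were tested, 155 (38.9%) were higher in heterozygous lines, and the median was -0.08, against -0.40 for null. Of these 398, 1 was called lower, 12 (3.02%) had heterozygous arrays above and 39 (9.80%) below all wild-type arrays. Over all genes 49.6% were higher, so the lists lay to opposite sides of the background, each in the direction of the null lines. No p is given for a list.

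On a scale built from these 2 lists (mean of the first minus mean of the second, wild-type mean at 0% and null mean at 100%), wild-type lines 2, 3 and 20 stood at -5.1%, -18.1% and 23.1%. Heterozygous lines 11, 15 and 26 stood at 20.1%, 7.9% and 41.3%, a mean of 23.1% ± 16.9 (SD, n = 3). Null lines were at 47.4% (line 16) to 130%. The heterozygous and wild-type lines overlapped, since wild-type line 20 lay above heterozygous lines 11 and 15. Among lines numbered under 20 both heterozygous lines were above both wild-type lines, and among those numbered 20 and above line 26 was above line 20. This split was chosen after the data were seen and leaves few lines on each side, so it does not remove the overlap. Leaving out each of the 6 lines in turn put the heterozygous mean at 14.1% to 31.2%. The list medians and this position were not refitted with the Gapdh ratio as a covariate.

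**Figure D5:**
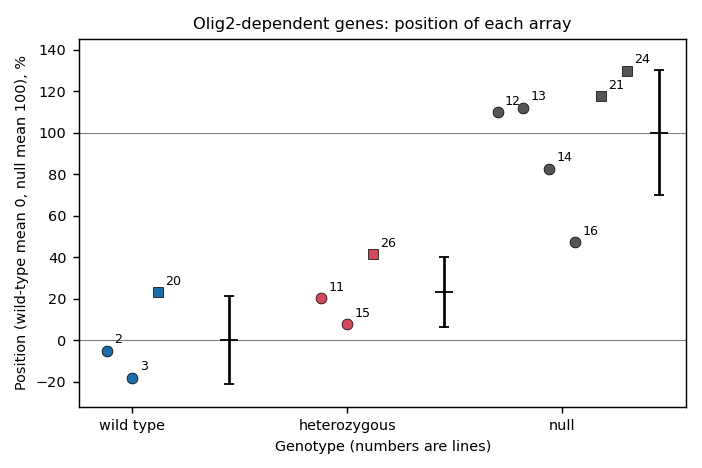
Position of each untransduced array (vertical axis, %) on the scale of Olig2-dependent genes, where the wild-type mean is 0 and the null mean 100; numbers are lines, squares are lines numbered 20 and above, and the bars beside each group are the mean and 1 SD. Heterozygous lines lie at 7.9% to 41.3%, overlapping wild-type line 20 at 23.1%, and below null line 16 at 47.4%.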

How the data were processed

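RNA from 12 untransduced neurosphere cultures was hybridised to Affymetrix Mouse Genome 430 2.0 arrays on 1 date, per the labels. The deposited values are MAS5 signals made by the authors, per the submitters' processing notes (version not given in the sources used here), an intensity on a linear scale. After trimming 2% of probe sets at either end, every array had a mean of 500, as computed from the values.

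Of 45101 probe sets, 34945 had 1 gene symbol, 932 several and 9224 none, besides 64 control probe sets whose symbols were not used. Each of 18193 genes was read from the probe set with the highest log2 signal on average across the 30 arrays, and tested where at least 3 arrays reached their array's median. RefSeq GRCm38.p6 gave positions and promoters. limma 3.58.1 in R 4.3.3 (lmFit, contrasts, eBayes with trend) was run on log2(signal + 16), two-sided, with Benjamini-Hochberg adjustment over all genes of a comparison; it was tested on simulated data.

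Text names Olig1, Olig2, Id4, Cdkn1a, called genes, the 10 of smallest p each way, the 10 largest null differences each way, up to 6 ordered genes each way, up to 4 members of smallest p per list and the Olig neighbours; others were named after their values were seen. The arrays and gene lists were chosen with earlier results of these data known. For the list from virus arrays, same-numbered GFP and Olig2 arrays come from 1 line each; their deviations correlated at 0.016, 0.063 and 0.007. Alternatives covered pseudocount, filter, scaling, probe sets, weights, covariates and leaving out each array.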

Additional observations from a re-analysis of the deposited data

Results flagged for a closer look

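Among the 6 null arrays, 2 of the genes described had 1 array far from the other 5, by the gap to the nearest array as a share of the whole range on the log2 scale; chance gives such a gap in about 1 of 20 groups, and with 65 genes examined 2 is no more than chance gives. For D430041D05Rik, an ordered gene, null line 16 gave 1204 against 1665 to 1918 in the other null lines, and the share was 0.695. For Pcdh7, a protocadherin gene that was also in order, null line 16 gave 2.4 against 28.8 to 47.2, and the share was 0.721; all 6 of these signals are far below the array medians. Null line 16 was the null array nearest to wild type for D430041D05Rik and the furthest from it for Pcdh7. Without it, the heterozygous minus wild-type difference of D430041D05Rik was called, at the same 0.997.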

How the results depend on the processing

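Counts of called genes depended on the setting. Between heterozygous and wild-type lines, the 4 calls became 0 with no filter, 0 with no variance trend, 0 with the Gapdh ratio as a covariate (1174, 799 and 1001 genes at an unadjusted p under 0.05 by limma), 1 with 75th percentile scaling, 1 without _x_at and _s_at probe sets, 1 with Xist as a covariate, 2 with every probe set, 2 with a log2 difference of at least 1 required, and 9 with a term for lines numbered 20 and above, which was added after the data were seen. Leaving out 1 array gave 0 to 8 calls: 0 when line 3, 11 or 15 was dropped (752, 781 and 893 genes at an unadjusted p under 0.05), and 8 when null line 16 was. The 20 calls against the midpoint became 11 with no filter, 12 with quantile normalization, 32 with every probe set, 46 with array weights, 5 with no variance trend, 8 with the Gapdh ratio, 39 with the term for lines numbered 20 and above, 13 with a log2 difference of at least 1, and 5 to 22 with 1 array left out. The 1000 calls of null lines against both became 1624 with every probe set, 437 with the Gapdh ratio, 315 with a log2 difference of at least 1, and 755 to 951 with 1 array left out. The cause was not tested. The 982 calls of Olig2 against GFP in null lines were 994 with the replicate block of the shared line and 298 to 1171 with 1 array left out, and 75th percentile scaling gave 1328, of which 303 were higher. The median differences of the genes lowered and raised by Olig2 ranged from 0.08 to 0.16 and from -0.15 to -0.02 with 1 array left out. Reversed signs were seen with the Gapdh ratio for Bmpr1a (0.026), Ccna2 (0.10), Hk2 (-0.013), Slc2a1 (-0.17) and Trem2 (0.033), and without heterozygous line 26 for Smad7 (0.10, against -1.47 without heterozygous line 15); none of these was called. With 3 lines a group and a median interval of 0.44 to either side, small part-way changes of single genes could not be resolved.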

Other observations

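The genes given here were singled out after their values were seen, among those above or below both other genotypes in heterozygous lines. Cd93, a C-type lectin receptor known from endothelium, gave 5602, 2297 and 3293 in wild-type lines, 9660, 9249 and 9213 in heterozygous lines and 1230 to 4853 in null lines, a heterozygous minus wild-type difference of 1.42 (SE 0.41, limma adjusted p = 0.45). Slc7a1, a cationic amino acid transporter gene, gave 1648, 2459 and 2232, then 3734, 3000 and 3318, then 1885 to 2516, a difference of 0.68 (limma adjusted p = 0.34). Neither passed the test across all genes. Among the genes below both other genotypes, the Wnt receptor gene Fzd3 gave 2476, 2598 and 2209, then 1729, 1774 and 1660, then 2211 to 3097, a difference of -0.49 (limma adjusted p = 0.37).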
